A study of Homo sapiens with 6 samples.

Results

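The genes described here encode Fc receptor-like proteins and Fc receptors of B cells: FCRL1 to FCRL5, FCRLA, FCRLB, FCGR2B, FCER1G and FCMR. They were taken by gene symbol, current or former, from the array annotation, and all 10 were found among the 19775 genes of the table, with 26 probe sets in all. Where a gene had several probe sets, the one with the highest mean over the 6 arrays represents it and the others serve as a check. The genes were put together after levels by line had been seen, FCRL3 being high in Raji and FCER1G in Namalwa, so levels by line are given as a description without a test. The arrays came from 3 established lines of Burkitt lymphoma (a MYC-translocated lymphoma of B cells), Namalwa, Raji and Ramos. The empty group and the miR26a group had 3 arrays each, 1 from every line. The labels describe the lines as transfected and list doxycycline at 0.5 µg/ml for 72 h, which switches on the microRNA, for the empty arrays as well as the miR26a arrays. The labels do not say what the empty construct holds, whether a line is a clone, or how many cultures stand behind an array, so any p-value measures only the spread between these samples. Values are RMA intensities on the log2 scale, where a difference of 1 is a doubling. A mean of 4.42, the median over all non-control probe sets, is used as a level minimum, and signals below it are close to background.

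Fc receptors bind the constant part of antibodies. The receptor-like proteins are their relatives on B cells, and some of them bind antibodies as well. Their tails carry immunoreceptor tyrosine motifs, either activating (ITAM), which recruit the kinase SYK, or inhibitory (ITIM), which recruit the phosphatases encoded by PTPN6, PTPN11 and INPP5D. In B cells these receptors tune the signal of the antigen receptor, and different members mark different B-cell stages. FCRL4 is known from memory B cells of tissues and FCRL5 from activated B cells and plasma cells. FCRLA is known from germinal centre B cells.

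All 10 genes lie on chromosome 1. FCRL5, FCRL4, FCRL3, FCRL2 and FCRL1 follow each other in that order in the RefSeq annotation. FCGR2B, FCRLA and FCRLB form a second run, while FCER1G and FCMR stand alone. The sequences shown are those of the microRNA that was switched on and of the start regions of the neighbours FCRL5, FCRL4, FCRL3 and FCRL2. Of these genes 3 were higher in Raji and FCRL5 was lower. The microRNA is shown in its mature form with the seed, bases 2 to 8, in capitals. The promoter windows are those of RefSeq, 250 bases before to 50 after a start site, and all 4 lie on the minus strand. Capitals mark the letters ACTTCCT, the reverse complement of AGGAAGT, a motif bound by ETS factors such as PU.1 of B cells.
hsa-miR-26a-5p: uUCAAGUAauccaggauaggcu
FCRL5 promoter, GRCh38.p14 chr1:157552466-157552765, minus strand: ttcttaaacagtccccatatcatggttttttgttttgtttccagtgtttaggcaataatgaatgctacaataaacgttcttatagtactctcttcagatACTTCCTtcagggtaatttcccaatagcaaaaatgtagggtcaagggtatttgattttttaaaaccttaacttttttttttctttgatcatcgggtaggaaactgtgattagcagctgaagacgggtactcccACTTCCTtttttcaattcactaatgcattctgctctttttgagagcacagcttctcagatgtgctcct
FCRL4 promoter, GRCh38.p14 chr1:157598036-157598335, minus strand: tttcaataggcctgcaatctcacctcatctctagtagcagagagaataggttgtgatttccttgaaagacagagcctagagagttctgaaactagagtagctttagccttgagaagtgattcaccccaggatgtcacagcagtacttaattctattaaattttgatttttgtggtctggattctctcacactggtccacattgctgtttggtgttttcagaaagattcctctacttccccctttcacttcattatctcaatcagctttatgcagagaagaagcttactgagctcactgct
FCRL3 promoter, GRCh38.p14 chr1:157700720-157701019, minus strand: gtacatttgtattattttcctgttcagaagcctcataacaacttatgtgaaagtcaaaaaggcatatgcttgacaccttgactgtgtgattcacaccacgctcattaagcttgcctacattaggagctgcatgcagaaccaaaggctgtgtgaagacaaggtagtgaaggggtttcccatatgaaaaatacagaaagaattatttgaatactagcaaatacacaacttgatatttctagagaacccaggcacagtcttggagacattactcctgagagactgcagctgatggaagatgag
FCRL2 promoter, GRCh38.p14 chr1:157777083-157777382, minus strand: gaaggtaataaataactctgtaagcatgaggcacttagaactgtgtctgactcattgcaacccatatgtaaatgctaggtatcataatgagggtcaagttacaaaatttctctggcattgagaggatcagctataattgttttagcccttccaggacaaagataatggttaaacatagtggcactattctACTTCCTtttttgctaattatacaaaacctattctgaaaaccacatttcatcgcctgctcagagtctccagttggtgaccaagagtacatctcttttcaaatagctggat
On either strand, AGGAAGT was present in 8.24% of 35116 RefSeq promoter windows of this length. Among the windows of the 10 genes it was found for 5: FCRL5, FCRL2, FCRL1, FCRLA and FCMR. FCRL5 held 2 matches, at -151 to -145 and at -18 to -12 from the start site, and FCRL2 held 1, at -60 to -54. FCRL4 and FCRL3 held none in the windows shown. Whether these letters bear on the levels by line was not tested. The octamer ATTTGCAT, known from immunoglobulin promoters, was found on either strand in a window of FCRLB and in 1.77% of all windows. The interferon response motif, bound by interferon regulatory factors, was found on either strand for FCRL1, FCGR2B and FCRLA and in 3.57% of all windows. CAGGTG, an E-box bound by TCF3, was found on either strand for FCMR and in 20.6% of all windows. CCCNNGGG, bound by EBF1, was found for none of the 10 genes and in 19.1% of all windows. No match overlapped one of another of these motifs in the windows of the 10 genes.

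The arrays carried B-cell RNA as labelled. The 5 B-cell markers found on the array (MS4A1, CD79A, CD79B, PAX5 and CD22) were above the level minimum on all 6 arrays, with a mean log2 level of 8.45 to 9.95 per array. Of 7 monocyte or macrophage markers 0 to 2 were above it, with mean levels of 3.29 to 4.28, and 5 of the 7, CD14 and LYZ among them, had a mean below it. The other 2 were ITGAM, at 6.46 and 7.63 in Raji, 4.62 and 5.48 in Namalwa and 3.97 and 3.58 in Ramos, and CSF1R, above the minimum in Raji alone at 4.97 and 4.79. Of 5 mast cell or basophil markers 1 was above it on every array, and of 7 T or NK cell markers 2 were. Array medians lay between 4.36 and 4.44. The Namalwa empty array stood apart in RNA quality: its 3′ ACTB probe set exceeded the 5′ one by 3.58 log2, while on the other 5 arrays the excess was 1.80 to 1.98. In bulk RNA, fewer cells that express a gene and less RNA per cell cannot be told apart.

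FCRL3, FCRL2 and FCRL4 were higher in Raji than in the other lines. FCRL3, which carries both kinds of motif and binds secretory IgA, was at 8.81 and 8.90 on the Raji empty and miR26a arrays, at 3.26 and 3.20 in Namalwa and at 3.07 and 3.11 in Ramos. Its level in Raji was thus far from all other arrays, which lay below the level minimum. Its mean was 8.85 ± 0.06 (SD, n = 2) in Raji, 3.23 ± 0.04 (SD, n = 2) in Namalwa and 3.09 ± 0.03 (SD, n = 2) in Ramos. Counted against the level minimum of 4.42, Raji was at least 21.6-fold above both. FCRL3 passed the minimum, with a mean of 5.06 over 6 arrays, only through Raji. Its other probe set had line means of 4.49 in Raji, 2.33 in Namalwa and 2.69 in Ramos.

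FCRL2, an ITIM-bearing receptor of memory B cells, was at 7.97 and 8.40 on the Raji empty and miR26a arrays. It was at 5.39 and 5.41 in Namalwa and at 5.37 and 5.34 in Ramos. The 4 arrays of the other lines lay together above the level minimum, and both Raji arrays were clear of them. Raji was 6.88-fold above Namalwa and 7.10-fold above Ramos, with an SD between its 2 arrays of 0.30. By the other 4 probe sets of FCRL2, Raji was at least 1.42- to 4.45-fold above each of the other lines, counted against the level minimum where a line lay below it.

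FCRL4, whose ITIM tail dampens antigen receptor signals and which binds IgA, was at 4.56 and 4.09 on the Raji empty and miR26a arrays, at 3.10 and 3.0 in Namalwa and at 3.16 and 2.99 in Ramos. With a mean of 3.48 over the arrays it did not pass the level minimum and was not tested between groups. By this probe set the Raji mean of 4.32 was itself below the minimum, so no fold is given. By the next, Raji was at 4.88 and 5.26, at least 1.57-fold above both other lines, which lay below the minimum. On all 10 probe sets of FCRL2, FCRL3 and FCRL4, both Raji arrays lay above the 4 other arrays.

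**Figure D1:**
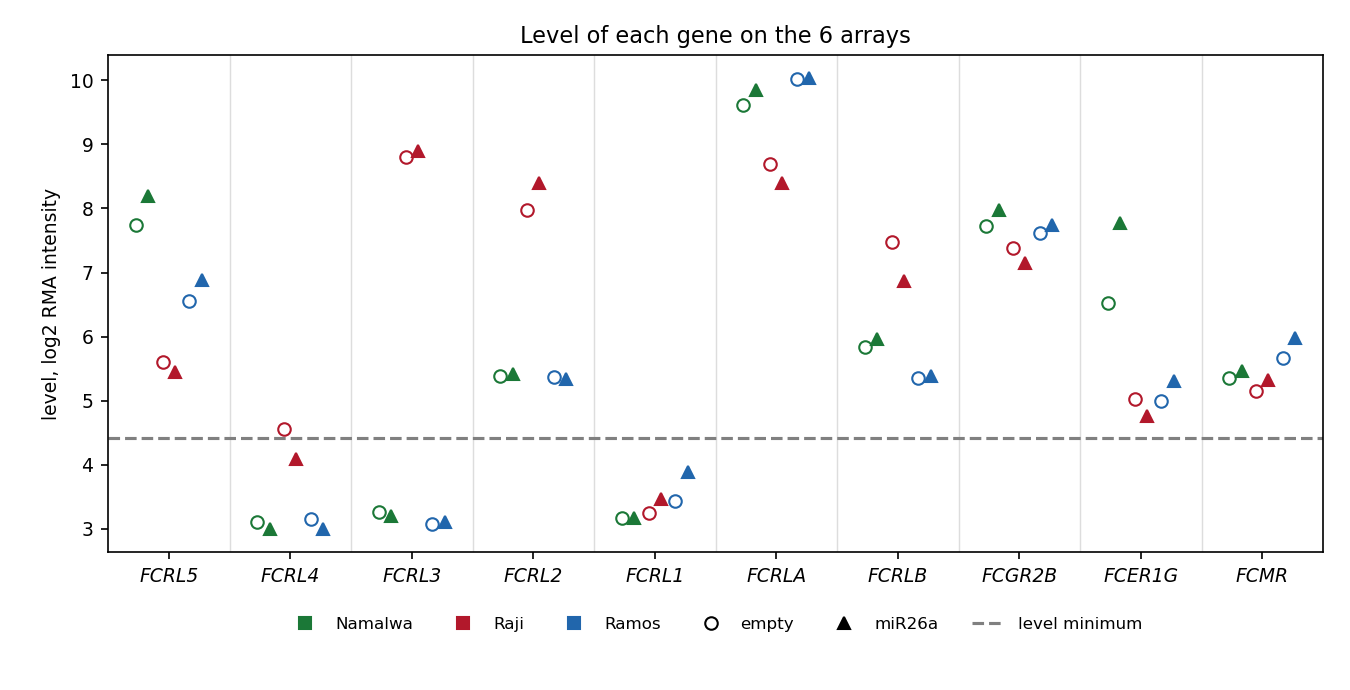
Level of each gene on each of the 6 arrays, in log2 RMA intensity, by the probe set of highest mean. Open circles are empty arrays, filled triangles miR26a arrays, colours the lines and the dashed line the level minimum of 4.42; FCRL3 and FCRL2 are high in Raji, FCRL5 and FCER1G in Namalwa, and levels are to be compared within a gene only.

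FCRL5, a receptor for IgG that carries ITAM-like and ITIM motifs, had another order of lines. It was at 7.74 and 8.19 on the Namalwa empty and miR26a arrays, at 6.55 and 6.88 in Ramos and at 5.60 and 5.45 in Raji. The 3 lines did not overlap, with Namalwa the highest and Raji the lowest. The line means were 7.96 ± 0.32 (SD, n = 2), 6.72 ± 0.23 (SD, n = 2) and 5.52 ± 0.10 (SD, n = 2), so that Namalwa was 5.43-fold above Raji and 2.37-fold above Ramos. A second probe set had line means of 7.22 in Namalwa, 5.88 in Ramos and 3.09 in Raji. Namalwa had the highest mean on all 5 probe sets of FCRL5, while Raji had the lowest on 4 of them. The third probe set above the level minimum showed smaller gaps, with Namalwa minus Raji at 0.79 and Raji minus Ramos at -0.22, and the remaining 2 were below the minimum on all arrays.

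FCRL1, the member with an activating tail that is found on most mature B cells, was not above the level minimum on any array by either of its 2 probe sets. Its levels ran from 3.17 on both Namalwa arrays to 3.88 on the Ramos miR26a array. No order of lines can be read from signals this close to background, and the probe set used is of a kind that may also bind other transcripts.

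**Figure D2:**
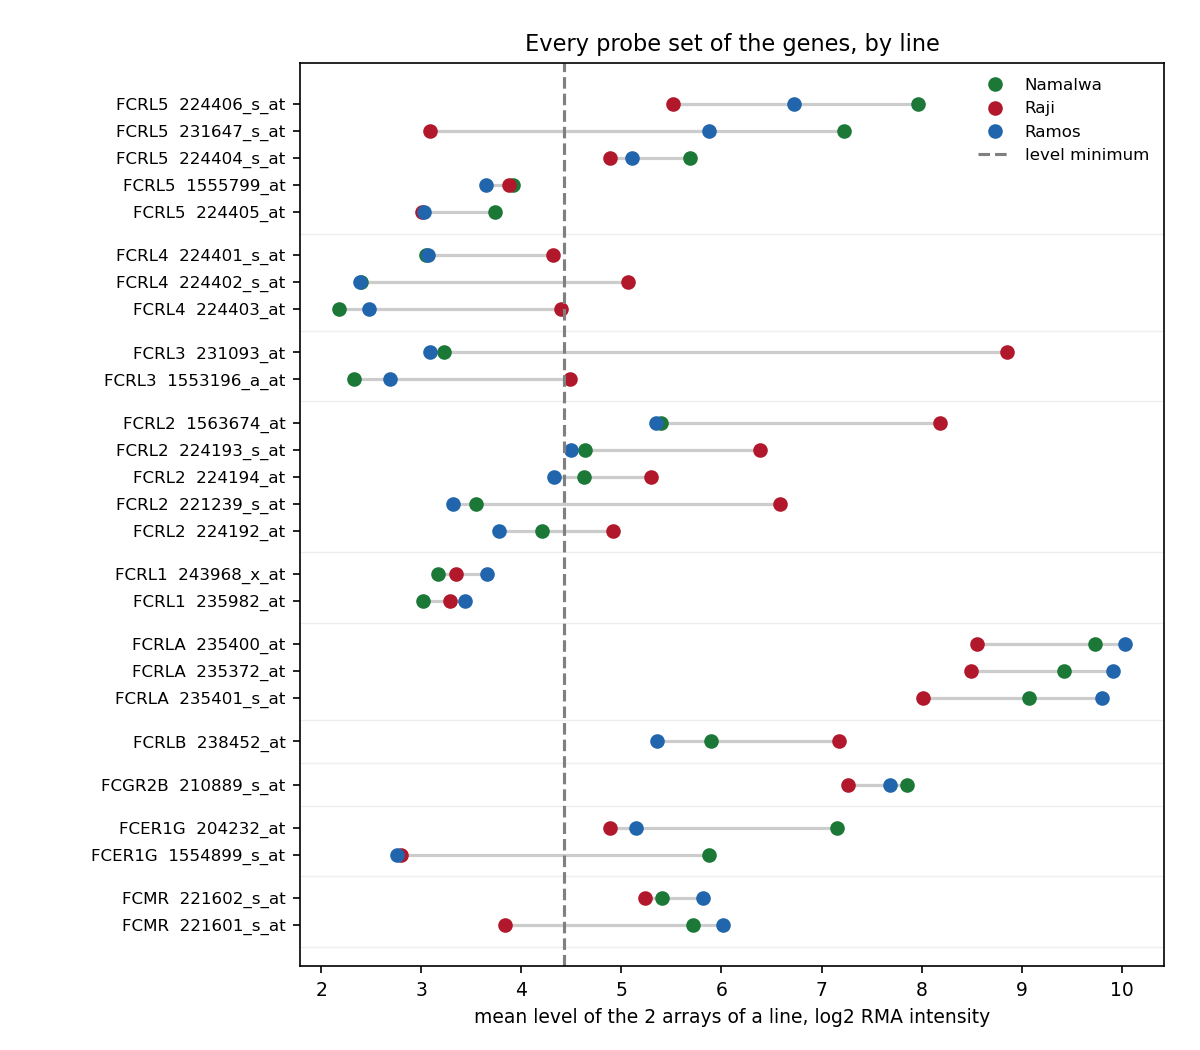
Mean level of the 2 arrays of each line, in log2 RMA intensity, for all 26 probe sets of the 10 genes. Each row is a probe set, colours are the lines and the dashed line is the level minimum; Raji is highest on all 10 probe sets of FCRL2, FCRL3 and FCRL4 and lowest on all 5 of FCRLA and FCMR.

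FCRLA and FCRLB encode proteins that stay inside the cell. FCRLA, which binds antibodies in the endoplasmic reticulum, was at 9.62 and 9.85 on the Namalwa empty and miR26a arrays, at 10.02 and 10.04 in Ramos and at 8.69 and 8.40 in Raji. Raji was the lowest line and its arrays did not overlap those of the others. Ramos was 2.80-fold and Namalwa 2.28-fold above Raji, and Ramos was above Namalwa by 0.30 log2, with an SD of 0.16 between the Namalwa arrays. The 3 probe sets gave the same order of lines. FCRLB went the other way, with 7.47 and 6.87 on the Raji arrays, 5.83 and 5.96 in Namalwa and 5.35 and 5.38 in Ramos. Raji was 2.41-fold above Namalwa and 3.49-fold above Ramos, and the SD between its 2 arrays was 0.42. FCRLB had 1 probe set, so this order has no check by another.

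FCGR2B, the inhibitory IgG receptor of B cells, differed little between lines. It was at 7.73 and 7.97 on the Namalwa empty and miR26a arrays, at 7.62 and 7.74 in Ramos and at 7.38 and 7.15 in Raji. Raji was the lowest line, 1.5-fold below Namalwa and 1.34-fold below Ramos, and Namalwa and Ramos overlapped. FCGR2C is a near-identical copy close to it, with FCGR3B between them in the annotation. The brightest probe set of FCGR2C had line means of 7.35, 6.88 and 7.31 in Namalwa, Raji and Ramos. Probes may bind both transcripts, so the value of FCGR2B is uncertain to that extent.

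FCER1G encodes the common gamma chain, an ITAM-bearing partner that several activating Fc receptors need to signal. In Namalwa it was at 6.53 with empty and at 7.77 with miR26a, against 5.02 and 4.76 in Raji and 5.0 and 5.30 in Ramos. Both Namalwa arrays were above all others but they differed from each other by 1.24, while Raji and Ramos overlapped. The Namalwa mean of 7.15 ± 0.88 (SD, n = 2) was 4.79-fold above Raji and 4.0-fold above Ramos. Without the Namalwa empty array, the array with the ACTB difference of 3.58, Namalwa was 2.88 log2 above Raji, and without the Namalwa miR26a array it was 1.64 above. The part of RNA quality in this spread was not tested. The other probe set of FCER1G was at 5.31 and 6.45 in Namalwa and between 2.59 and 2.93 on the other 4 arrays, where it lay below the level minimum. Receptors with which the chain pairs in myeloid or mast cells were near background, FCER1A with line means of 2.74 to 3.02, FCGR1A with 2.34 to 2.61 and FCAR with 3.72 to 3.84. The 7 monocyte or macrophage markers had mean levels of 3.46 and 3.57 on the Namalwa arrays and 3.98 and 4.28 on the Raji arrays, where ITGAM was high, and 3.29 and 3.36 on the Ramos arrays. Their part in the level of FCER1G was not tested.

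FCMR encodes the receptor for IgM. By its brighter probe set it was at 5.36 and 5.47 on the Namalwa empty and miR26a arrays, at 5.15 and 5.33 in Raji and at 5.66 and 5.98 in Ramos. The lines lay within 0.58 log2 of each other. Its other probe set, with a mean of 5.19 against 5.49, was at 5.57 and 5.87 in Namalwa and 5.83 and 6.21 in Ramos but at 3.93 and 3.74 in Raji, below the level minimum. By that probe set Raji was at least 2.46-fold below Namalwa and at least 3.04-fold below Ramos, counted against the level minimum. Both probe sets put Raji lowest, and they disagree on the size of the difference.

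A pair of lines was counted as apart for a gene when both arrays of one line lay at least 1 log2 above both arrays of the other. Of the 8 genes that passed the level minimum, Raji was apart above Namalwa for 2 (FCRL3 and FCRL2), and the same held for 3.93% of 12012 genes. Namalwa was apart above Raji for 2 (FCRL5 and FCER1G), beside 5.7% of all genes. Raji was apart above Ramos for 3 (FCRL3, FCRL2 and FCRLB), beside 4.87%, and Ramos above Raji for 1 (FCRLA), beside 6.54%. Namalwa was apart above Ramos for 1 (FCER1G), beside 0.766%, and Ramos above Namalwa for 0, beside 0.699%. Since these genes were chosen with levels by line in view, nothing is read from these shares. Just outside the limit lay FCRL4 in Raji against Namalwa, with a gap of 0.98, FCRL5 in Ramos against Raji with 0.96, FCRL4 in Raji against Ramos with 0.93, FCRLA in Namalwa against Raji with 0.92 and FCRLB in Raji against Namalwa with 0.91. With all 10 genes, Raji was apart above Namalwa for 4 without the Raji miR26a array. Among them was FCRL4, which did not pass the level minimum. Ramos was apart above Raji for 2 without the Raji empty array or without the Ramos empty array. Namalwa was apart above Ramos for 2 without the Namalwa empty array or without the Ramos miR26a array. Leaving out an array makes the limit easier to meet for any gene. Shares of all genes with an array left out are not given, so nothing is read from these counts.

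Along the run of FCRL genes the order of lines turned between neighbours. Raji minus Namalwa was -2.44 for FCRL5 and 2.78 for FCRL2, and for FCRL3 Raji was at least 21.6-fold higher. FCRL4, between FCRL5 and FCRL3, was highest in Raji on each of its 3 probe sets, near background. The genes beside the run did not show a gap of this size. ETV3, an ETS repressor next to FCRL5, had line means of 7.93 (Namalwa), 7.14 (Raji) and 8.11 (Ramos), and ARHGEF11, beyond it, was at 5.49, 5.63 and 5.42. On the other side, CD5L was below the level minimum in each line and KIRREL1 was at 4.81, 4.87 and 4.88. Next to FCER1G, ADAMTS4 was at 4.6, 4.76 and 4.61, TOMM40L at 7.03, 6.45 and 6.86 and B4GALT3 at 7.93, 7.50 and 8.25 in Namalwa, Raji and Ramos, while APOA2 lay below the minimum. After FCRLB, DUSP12 was at 9.19, 8.58 and 9.45 and ATF6 at 7.51, 6.86 and 7.92, both lowest in Raji where FCRLB was highest. FCGR3B, before FCGR2B, and IL20, IL24 and FCAMR, around FCMR, were below the minimum in each line, and PIGR was at 4.75, 4.92 and 4.80. None of these neighbours was apart between any pair of lines by the limit of 1 log2.

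**Figure D3:**
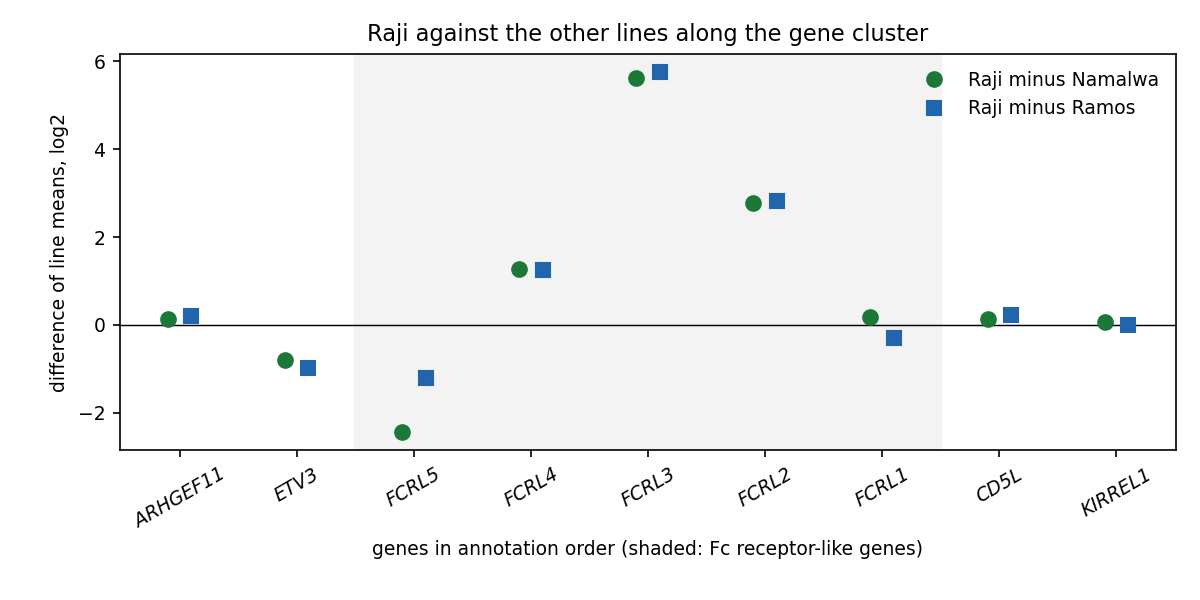
Difference of line means, in log2, of Raji minus Namalwa (circles) and Raji minus Ramos (squares) for the run of FCRL genes (shaded) and the 2 genes with a probe set on each side, in annotation order. FCRL5 lies below 0 and FCRL4, FCRL3 and FCRL2 above it, where the distances of FCRL4 and FCRL3 are not sizes of a change because the other lines lie below the level minimum, and the genes outside the shading lie within 1 log2 of 0.

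The comparison of miR26a with empty asked which RNAs differ when the microRNA is switched on. Among the 8 genes that passed the level minimum 0 were called (limma with the line as a block, Benjamini-Hochberg adjusted p from 0.456 upward), beside 0% of 12012 genes tested. Mean differences were above 0 for 6 of the 8 and below 0 for 2, so no call does not mean no change. At an unadjusted p under 0.05 there were 0 of the 8 and 1548 of all genes. The count over all genes depended on the lines, with 203 genes without the Raji pair, 23 without the Ramos pair and 0 without the Namalwa pair. The median difference was 0.09 over the 8 genes and -0.01 over all genes. By line the medians were 0.18 (Namalwa), -0.19 (Raji) and 0.08 (Ramos) for the 8 genes and -0.01, -0.02 and -0.01 for all. In a two-sided exact sign-flip test, 3 pairs cannot give a p below 0.25.

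FCER1G had the widest mean difference among them, 0.43 (SE 0.22, 95% interval -0.08 to 0.93, limma adjusted p = 0.469), and it was higher with miR26a in 2 of 3 lines. The differences were 1.24 (Namalwa), -0.26 (Raji) and 0.30 (Ramos). In Namalwa, 0.142% of genes differed by at least as much. By the other probe set they were 1.14, 0.26 and 0.32. Its Raji and Ramos arrays lay below the level minimum, where a fall or a small rise could not be seen. By the brighter probe set, without the Raji pair, the mean was 0.77 and passed the threshold (limma adjusted p = 0.0443), within a range of 0.0443 to 1.00 over 9 alternatives. The rise in Namalwa has the Namalwa empty array as its base.

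Of all genes tested, 15.5% were higher with miR26a in all 3 lines and 19.8% were lower in all 3. Among the 8 genes, FCMR alone had the same sign in each line, 0.11 (Namalwa), 0.18 (Raji) and 0.32 (Ramos). Its mean was 0.20 (SE 0.10, 95% interval -0.03 to 0.43, limma adjusted p = 0.456). By its other probe set Raji was at -0.20, on arrays that lay below the level minimum. FCRL5 was at 0.46 (Namalwa), -0.15 (Raji) and 0.33 (Ramos), with a mean of 0.21 (95% interval -0.08 to 0.51, limma adjusted p = 0.531). Its second probe set was higher with miR26a in each line, by 0.72, 0.14 and 0.62, and the third had -0.24, -0.42 and 0.11.

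The remaining genes had mean differences of -0.14 to 0.14. FCRL3 differed by 0.09 in Raji. In Namalwa and Ramos it lay below the level minimum, where a fall or a small rise could not be seen. Its mean of 0.03 (95% interval -0.20 to 0.25) thus speaks for Raji at most. FCRL2 was 0.43 higher with miR26a in Raji, the line with its highest level, and at 0.03 and -0.04 in Namalwa and Ramos. By its other probe sets the Raji difference was 0.56, -0.35, 0.30 and -0.41, so the probe sets disagree on its sign. The difference of FCRLB was 0.13 in Namalwa, -0.60 in Raji and 0.04 for Ramos, and 2.79% of genes differed in Raji by at least that much. FCRLA was at 0.23, -0.29 and 0.02 and FCGR2B at 0.25, -0.23 and 0.11 in Namalwa, Raji and Ramos. For 5 of the 8 genes (FCRL5, FCRLA, FCRLB, FCGR2B and FCER1G) the miR26a array was higher in Namalwa and Ramos and lower in Raji, a combination of signs held by 12.8% of all genes. With 1 array per line and group, a difference within a line has no error of its own and differences between lines were not tested.

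**Figure D4:**
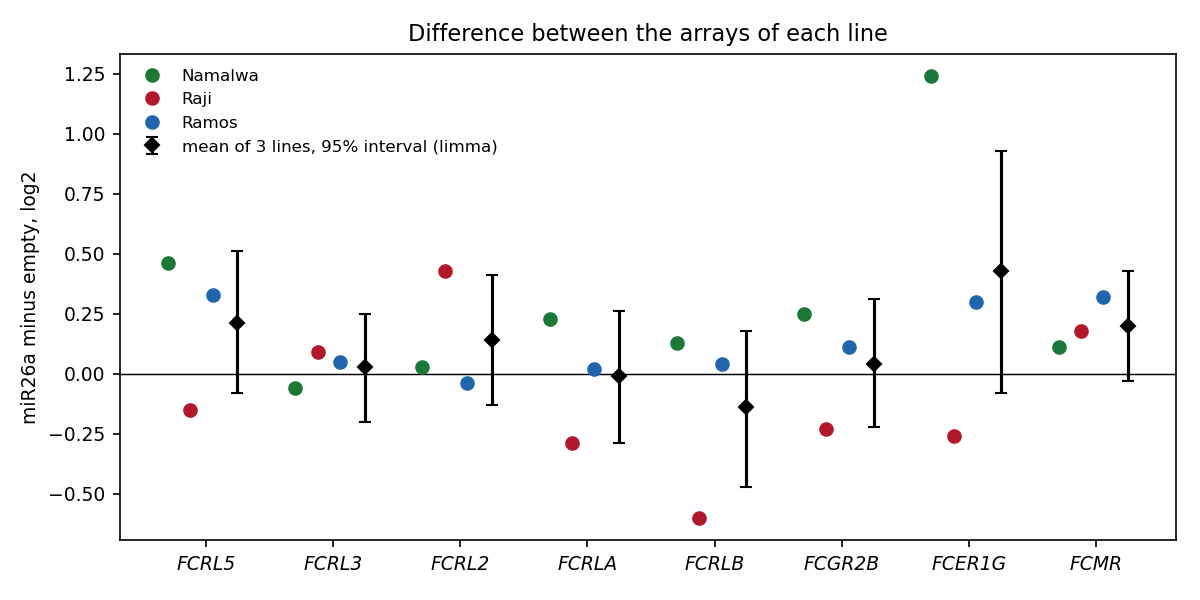
Difference between the miR26a and the empty array of each line (coloured points) and the mean over the 3 lines with its 95% interval from limma (black diamonds and bars), in log2, for the 8 genes that passed the level minimum. All 8 intervals span 0, and FCER1G in Namalwa lies at 1.24.

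Genes around these receptors were taken from lists made for this tissue. Of 15 other Fc receptor genes 12 were found and 5 passed the level minimum. Of the 5, 0 were called between the groups and 0 were apart in any pair of lines, beside 0% and 13.7% of all genes. The low-affinity IgE receptor FCER2 was at 4.92 (Namalwa), 5.45 (Raji) and 4.37 (Ramos), and the IgG transporter FCGRT at 5.99, 5.0 and 5.58. FCGR2C was at 7.35, 6.88 and 7.31, and TRIM21, a cytosolic antibody receptor, at 6.02, 6.35 and 6.02.

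Of 18 kinases, phosphatases and adaptors that the receptors use, 17 passed the level minimum, 0 were called (median difference 0.04) and 3 were apart in any pair of lines, beside 13.7% of all genes. The phosphatase PTPN6 was at 6.94 (Namalwa), 7.43 (Raji) and 5.86 (Ramos), and the exchange factor VAV1 at 6.99, 7.85 and 6.5. The adaptor BLNK was at 9.48, 8.21 and 9.54, lowest in Raji as FCRLA was, and the kinase LYN at 8.58, 9.48 and 8.35. SYK, the kinase of ITAM tails, stayed within 0.18 log2 between line means, and INPP5D, the phosphatase that FCGR2B recruits, within 0.15.

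Of 15 other co-receptors of B cells 10 were tested, 0 were called (median difference -0.18) and 4 were apart in any pair of lines, again beside 13.7% of all genes. The complement receptor CR2 was at 5.13 (Namalwa), 7.92 (Raji) and 3.96 (Ramos), and the sialic acid receptor CD22 at 7.08, 8.69 and 6.40. Both were highest in Raji, as were FCRL2, FCRL3 and FCRLB. CD72 was at 8.44, 6.57 and 7.64 and PECAM1 at 6.66, 4.98 and 5.47, both highest in Namalwa and lowest in Raji, the order of FCRL5. Among the immunoglobulin genes, which encode the ligands, 4 of 6 were tested and 0 were called. In any pair of lines 1 (IGHM) was apart, beside 13.7% of all genes, and 0 were with the mean of all probe sets. IGHM, the heavy chain of IgM, was at 10.77 (Namalwa), 13.05 (Raji) and 10.86 (Ramos), highest in Raji. FCMR was lowest there, but by its brighter probe set only 0.17 log2 below Namalwa, with a gap of 0.03 between their arrays. The 2 probe sets of FCMR disagree on the size, and a link between IGHM and FCMR was not tested. IGHG1 was at 7.51, 6.95 and 6.96, IGHD at 5.37, 5.34 and 4.55, and JCHAIN, which joins IgM and IgA into polymers, at 11.79, 11.53 and 12.35. Of the plasma cell markers, TNFRSF17, the BCMA receptor, was at 7.05 (Namalwa), 5.09 (Raji) and 6.52 (Ramos), and PRDM1 at 6.30, 5.48 and 5.86, the same order as FCRL5. XBP1, at 8.16, 7.40 and 8.38, and JCHAIN were highest in Ramos and lowest in Raji, and SDC1 was below the level minimum in each line.

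The genes nearest in pattern were found by the Euclidean distance between the 6 centred log2 values, for the 4 genes whose line means spanned at least 2 log2. Pearson's r over the 6 arrays is given as a description, since the 2 arrays of a line share their cells' origin. Nearest to FCRL5 were the activation marker CD69 (distance 0.23, r = 0.996), PSMB8-AS1 (0.36, r = 0.990), the cytokine receptor IL27RA (0.41, r = 0.987), THEMIS2 (0.55, r = 0.988) and NREP (0.57, r = 0.982). CD69 had line means of 7.45 (Namalwa), 4.95 (Raji) and 6.26 (Ramos). Nearest to FCRL2 were WWC1 (0.17, r = 0.999), SEPTIN8 (0.24, r = 0.998), LINC00698 (0.50, r = 0.992), the chemokine CXCL10 (0.51, r = 0.997) and ZSWIM7 (0.54, r = 0.993). Among the 5 nearest to FCRL3 were the glucan receptor CLEC7A (0.49, r = 0.999), AK4 (0.89, r = 0.999), SPINK2 (1.14, r = 0.990) and GPAT2 (1.18, r = 0.998), while the nearest is not reported here. CLEC7A was at 8.68 in Raji and at 3.30 and 3.28 in Namalwa and Ramos. There both CLEC7A and FCRL3 lay below the level minimum, so their distance and r rest on the high level in Raji. WWC1, at 3.78 and 3.88 in Namalwa and Ramos, was below the minimum there as well. Distances are therefore not compared between the 4 genes. The gene nearest to FCER1G was MYBPC2 (0.70, r = 0.977). After it came ENTPD2 (0.87, r = 0.973), HCP5 (0.94, r = 0.936), ST3GAL1 (0.94, r = 0.982) and CMAHP (0.99, r = 0.954).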

How the data were processed

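Biotin-labelled total RNA of 6 samples was measured on Affymetrix Human Genome U133 Plus arrays. The deposited table holds log2 values from the authors' RMA (background correction, quantile normalisation and summary per probe set), which is named in the design text and in the submitters' processing notes without a version. Nothing was normalised again. Quantile normalisation makes the arrays' probe distributions alike, so a shift of all RNAs would be hard to see.

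Probe sets with 1 gene symbol (41091 of 54675) were named through Entrez IDs with RefSeq (GRCh38.p14), which keeps apart FCRLA and FCRL1, and FCRLB and FCRL2, whose older names overlap. The probe set of highest mean stood for a gene, and 12012 of 19775 genes with a mean of at least 4.42 were tested. limma 3.58.1 (R 4.3.3) was fitted for miR26a minus empty with the line as a block, because both arrays of a pair come from the same line, and adjusted by Benjamini-Hochberg over all genes at a threshold of 0.05. The fit was tested on simulated data. Levels by line were described without a test. The text names all 10 genes, the 4 widest tested genes of each list of other Fc receptors, partners, co-receptors and immunoglobulins, neighbours and the 5 nearest patterns (1 gene near FCRL3 is not reported here). A few further list and marker genes were chosen after their values were seen. Members and lists were chosen with earlier results of these data known. Sequences are from RefSeq; protein sequences were not used here. Alternatives are given in the closing section.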

Additional observations from a re-analysis of the deposited data

Results flagged for a closer look

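In 3 of the 8 tested genes the miR26a array was at least 0.2 log2 above the empty array in one line and at least 0.2 below it in another. The share of all genes that meet this limit is not given, so nothing is read from the count. The difference in Namalwa minus that in Raji was 1.5 for FCER1G, 0.52 for FCRLA and 0.48 for FCGR2B. In Namalwa, 0.142% of genes differed at least as much as FCER1G, 35.9% as FCRLA and 33.2% as FCGR2B. In Raji these shares were 26.8%, 21.6% and 31.4%. The difference between lines was not tested, since each line has 1 array per group. The Namalwa empty array, which enters all 3 values, had the ACTB difference of 3.58, and its part was not tested. By the other probe sets the Raji array pairs of FCRLA were at -0.25 and 0.09. That of FCER1G was at 0.26, with both arrays below the level minimum.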

How the results depend on the processing

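The count of genes called between the groups was 0; it was 50 when the minimum was raised to the 75th percentile, 102 with a robust prior that follows intensity, and 0 to 203 when a line was left out (23 without Ramos). Of the 8 genes described, FCER1G alone passed in any alternative, without the Raji pair. The sign reversed without the Raji pair for FCRL3 (-0.01), FCRL2 (-0.003), FCRLA (0.12) and FCRLB (0.08), without the Namalwa pair for FCGR2B (-0.06), and with the mean of all probe sets for FCRLA (0.02). With no replicate block 0 genes were called, and it changed no call. Counts of genes apart between lines were taken over all 10 genes, and shares of all genes under these alternatives are not given. Raji above Namalwa was 4 in empty arrays only and at a limit of 0.5 log2, in both cases with FCRL4, which did not pass the level minimum. Namalwa above Raji was 1 at a limit of 2 log2. Namalwa above Ramos was 2 in empty arrays only, in miR26a arrays only and at 0.5 log2, and 0 at 2 log2. Ramos above Raji was 2 in miR26a arrays only, with arrays centred on their medians, with the mean of all probe sets and at 0.5 log2, and 0 at 2 log2. Leaving out single arrays gave 2 to 3 for Namalwa above Raji, 3 to 4 for Raji above Ramos, 2 to 4 for Raji above Namalwa, 1 to 2 for Namalwa above Ramos and 1 to 2 for Ramos above Raji. With the mean of all probe sets, 1 of the other Fc receptors and 0 of the immunoglobulin genes were apart, against 0 and 1. Of 300 differences of line means recomputed under alternatives, 48 moved by at least the spread between arrays. Those of pairs counted as apart kept their sign, while some smaller ones did not. Raji minus Ramos of FCER1G went from -0.26 to 0.02 in empty arrays only. Namalwa minus Ramos of FCRL3 went from 0.14 to -0.11 with the mean of all probe sets. The number of arrays and signals near background limit FCRL1, FCRL4 and the lower values of FCRL3.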
